A study of Mus musculus with 8 samples.

Results

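The comparison described here set lenses of wild-type (WT) C57BL/6J mice against lenses of WT 129SvJae mice, both at 10 days of age, on oligonucleotide arrays. It used 4 of the 8 arrays of the study, 2 for each strain, and took every probe set other than the controls whose mean signal passed 50 in either WT group. This left 9552 of 12422 probe sets, of which 8480 carried 1 gene symbol, for 6886 genes. The other 4 arrays held lenses of the same age from α3Cx46 knockout (KO) mice on both backgrounds, which lack the gap junction protein encoded by Gja3. They entered the fit to estimate the spread and served as a separate set of arrays in which the strain difference could be measured again. Every RNA sample was a pool of 20 to 30 lenses from mice of both sexes, with no treatment. The sample titles do not give the share of each sex in a pool. The study lists Xist, a transcript of the inactive X chromosome, as lower in C57BL/6J in WT lenses but not in KO lenses. The part of sex in the strain ratios was not tested. No source states that the replicates of a group came from different litters, and p-values therefore reflect only how these pools and arrays vary. The question behind the strain comparison was which transcripts differ between a background on which loss of the connexin gives severe cataract and one on which it gives a milder form.

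The lens is a transparent tissue made of a single sheet of epithelial cells and a mass of elongated fiber cells, enclosed in a capsule of basement membrane. Fiber cells fill with crystallins, the soluble proteins that give the lens its refractive power, and they lose their nuclei and organelles as they mature. Inbred mouse strains differ at many loci, and lens transcripts of one strain can differ from those of another without any knockout. Several strains of the 129 family carry a mutation in Bfsp2, which encodes a beaded filament protein of fiber cells, and this is a limit of 129SvJae as a reference strain. Bfsp2 was not analysed here.

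The values are MAS5 signals, a brightness per probe set that the authors scaled to a mean of 250 on every array. Ratios are log2 of C57BL/6J over 129SvJae, and called probe sets are those with a limma p under 0.05 after Benjamini-Hochberg adjustment over all 9552. Where 4 signals are listed for a gene, they are those of 129SvJae WT replicates 1 and 2 and then of C57BL/6J WT replicates 1 and 2. The strains gave similar arrays. Across probe sets the Spearman correlation was 0.830 between the replicates of 129SvJae WT and 0.810 between those of C57BL/6J WT, and it was 0.907 between replicate 2 of one strain and replicate 2 of the other, higher than within either strain. The correlation was 0.759 between the replicate 1 arrays of the strains. The median size of the log2 ratio was 0.40 over all probe sets tested, against a median difference of 0.53 between the 129SvJae WT replicates and 0.55 between the C57BL/6J WT replicates. Replicate 1 of all groups was scanned in a single session, 129SvJae WT replicate 2 alone in another, and C57BL/6J WT replicate 2 was scanned together with replicate 2 of both KO groups. For C57BL/6J WT replicate 1 a fluidics error was logged during the run. The array labelled 129SvJae WT replicate 1 stood apart in both transcripts that the knockout marks. Gja3 read 1101 on it, against 1969 to 3383 on the other WT arrays and 445.1 to 519.8 on the KO arrays. A protamine polyadenylation sequence is part of the knockout construct, as the study describes it. The protamine transcript Prm1 read 387 on it, against 4.70 to 14.5 on the other WT arrays and 1340.6 to 2168.7 on the KO arrays. The part of this array's RNA in the strain ratios was not tested, and counts without the array are given below. Without it Gas5, Cryge, Col6a3, Tpm4 and Pla2g12a kept their calls, and Trappc5 and Pgk1 lost theirs.

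The labelled tissue was borne out by its markers. The summed signal of the lens fiber markers, which are Mip, Crybb2, Crygs, Gja3 and Bfsp1, was 131864 to 168013 on the 4 WT arrays, and that of 11 lens epithelium markers was 17393 to 24099.8. Markers of neighbouring tissues summed to less. The 9 retina markers summed to 496 to 1331, the 12 vessel markers to 1914 to 3043 and the 6 blood markers to 458 to 1021. Acta2 of vessels read 867 to 1990 and Hba-a1 of blood 162.5 to 641.7. Of 7 tested retina markers 6 were lower in C57BL/6J (median log2 ratio -1.15), as were all 3 tested blood markers (-0.87). In KO lenses these medians were 0.07 and -0.20. Medians of the other non-lens marker lists in WT lenses ran from -0.47 (cornea and conjunctiva) to 0.01 (pigmented tissues). The retinal arrestin Sag stood at 476 on 129SvJae WT replicate 1 and at 10.0 to 49.6 on the other WT arrays. The 11 macrophage markers summed to 6619.7 on C57BL/6J WT replicate 2 and to 2602.5 to 3491 elsewhere, and a single probe set of the complement gene C1qb gave 6093 of it on that array. Several other macrophage markers were near background there, where a second C1qb probe set read 14.1, C1qc 29.6, Itgam 14.1 and Lyz2 at most 5.5. Cd14 was not, at 224.1 there and 206.6 to 306.5 over the 4 WT arrays. One Csf1r probe set ran lower in C57BL/6J, at 336.5, 269.4, 74.8 and 148.4, and its log2 ratio in KO lenses was -0.09. The other Csf1r probe set overlapped between the strains, at 69.2, 112.9, 209.1 and 70.9 (log2 ratio 0.46, SE 0.77). The part of these cells in the strain differences below was not tested, and in pooled lenses fewer cells of a type and less RNA per cell cannot be told apart.

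Few probe sets passed the test in WT lenses, and those that did differed by large factors in array signal. A set of 5 probe sets was higher in C57BL/6J, by 3.50-fold to 19.6-fold, and these read Gas5, Col6a3, Pla2g12a, Trappc5 and, through 1 of its 4 tested probe sets, Cryge. Tpm4 was lower by 4.38-fold and Pgk1 by 2.39-fold. These 7 probe sets are 0.0733% of those tested. Real-time PCR in the study assayed Gas5 and Col6a3 among them, and gave smaller ratios in WT lenses for both. The study's methods asked for an unadjusted p no higher than 0.01, a fold of at least 1.8 and a mean above 50. With limma's p these criteria were met by 144 probe sets, or 1.51% of those tested, with C57BL/6J the brighter strain in 84 and the dimmer in 60. On all 144 the signals of the strains did not overlap, as was the case for 32.9% of all probe sets. With the replicate number as a block in the fit, 16 probe sets were called, 13 higher and 3 lower, among them all 7. With the scan session as a block there were 36 calls, 31 higher and 5 lower, and Pgk1 was not among them.

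**Figure D1:**
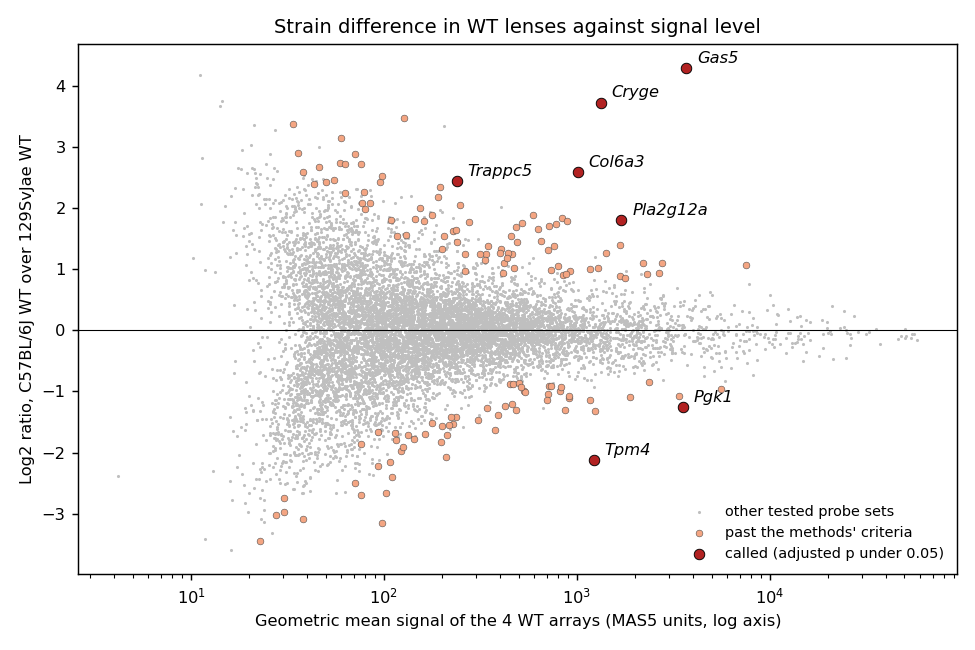
Log2 ratio of C57BL/6J WT over 129SvJae WT (y axis) against the geometric mean signal of the 4 WT arrays (x axis, log scale) for 9552 probe sets, with the 144 past the methods' criteria in orange and the 7 called ones in red and named. The called probe sets lie outside the band of the others at their level, and the band widens toward low signals.

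Signal level set what could be seen. Of 3649 probe sets with a geometric mean signal under 100, none was called by limma and 30 met the criteria (0.822%), and their median standard error was 0.94 on the log2 scale. Above 1000 the median standard error was 0.23, and 6 of 829 probe sets were called and 23 met the criteria (2.77%). At the adjusted threshold a difference of several fold was therefore often out of reach for dim transcripts, and 30 of the 144 probe sets had a mean of 50 or less in the dimmer strain.

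Gas5, a noncoding transcript that hosts small nucleolar RNAs (snoRNAs) in its introns and is known to build up when cells stop growing, led the called probe sets in ratio. Its signals were 882 and 790.1 on the 129SvJae WT arrays and 19107 and 14026 on the C57BL/6J WT arrays. The C57BL/6J arrays were thus far above the 129SvJae arrays in both replicates, at a log2 ratio of 4.29 (SE 0.20, adjusted p = 1.64e-07). Gas5 belongs to the transcripts with a terminal oligopyrimidine tract, a run of C and T at the start that makes translation depend on growth signals, as in ribosomal protein messages. The start of 1 of its annotated transcripts is shown because the largest difference of the comparison falls on such a transcript. In RefSeq (GRCm38.p6, chr1:161035146-161035195, plus strand) it reads as follows, with the tract in capitals, 6 bases long and beginning 1 base before the annotated start.
Gas5: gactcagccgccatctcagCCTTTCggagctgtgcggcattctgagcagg
A run of at least 5 pyrimidines that begins with C within 1 base of the annotated start was found in 6.32% of 32851 promoters and in 28.4% of 67 promoters of ribosomal protein genes. The other annotated Gas5 start has no such run.

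The other snoRNA hosts did not share the difference as a group. Of 14 tested, 2 had an unadjusted p under 0.05, both higher in C57BL/6J, and the median log2 ratio was -0.01, as over all 6886 genes. Over all genes 3.6% were higher and 3.28% lower at that p, or 6.88% in either direction. The second was Snhg6, with signals of 387, 399.5, 861 and 1369. Both C57BL/6J arrays stood above both 129SvJae arrays, and the log2 ratio was 1.46 (SE 0.27). By limma this missed the threshold at an adjusted p of 0.0896 and passed it at an adjusted p of 0.03995 with the replicate number as a block. The ratios of the other hosts ran from -0.88 (Rcc1, SE 0.88) to 1.30 (Eef1b2, SE 0.82). Eef1b2, a translation elongation factor, read 44.3, 301.9, 493.8 and 163.4, so the strains overlapped, and without 129SvJae WT replicate 1 its ratio was -0.09. Of 30 ribosomal proteins tested, 1 (Rps29, log2 ratio 1.43, SE 0.64) had an unadjusted p under 0.05, and the median was -0.07.

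Gas5 is read by 3 tested probe sets on this chip. A dimmer one gave signals of 51.7, 28.1, 488.5 and 365, so that it too separated the strains, at a log2 ratio of 3.47 (SE 0.67, adjusted p = 0.0995). A probe set near background gave 61.2, 27.9, 75.2 and 45.7, at a log2 ratio of 0.50 (SE 1.02). Its signals overlap between the strains.

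The crystallins, the bulk of the lens transcripts, had small ratios against the spread of their replicates. Of 11 crystallin genes tested, none had an unadjusted p under 0.05 and none was called by limma. Their log2 ratios lay between -0.22 (Cryz) and 0.25 (Cryab), with a median of -0.09, and leaving out C57BL/6J WT replicate 1 moved the median to -0.46, leaving out replicate 2 of that group to 0.24. Cryaa, which encodes αA-crystallin, a chaperone of the lens, had signals of 68032, 48036, 72855 and 41106. Crygd, a γ-crystallin of the fiber core, had 73509.5, 51570.2, 79433 and 38755. In both genes replicate 1 was brighter than replicate 2 in either strain, and the strains overlapped. The ratio was -0.06 (SE 0.31) for Cryaa and -0.15 (SE 0.32) for Crygd. Signals at this level are the brightest of the chip, and whether they still follow the amount of RNA was not tested.

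A single crystallin probe set stood apart. It is annotated Cryge and read 247, 541, 4397 and 5339, so the C57BL/6J signals were far above those of 129SvJae. Its log2 ratio was 3.73 (SE 0.31, adjusted p = 1.00e-04), or 13.2-fold. A pair of much brighter probe sets of the same annotation read 37116 to 68712 on the WT arrays and had a log2 ratio of -0.12 each (SE 0.29 and 0.30). Another Cryge probe set ran the other way, at 1048, 996.5, 596 and 652 with a log2 ratio of -0.71 (SE 0.29). The γ-crystallin genes are near-identical copies, so these probe sets may share RNA from several of them. The difference is therefore that of 1 probe set, and the level of Cryge as a gene is uncertain.

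No gene on the list of fiber structure and membrane was called. Of 14 tested, 1 was higher and 1 lower at an unadjusted p under 0.05, with a median of 0.18. This is a share of 14.3%, against 6.88% over all genes. Caprin2, an RNA-binding protein, read 9565, 7055, 14974 and 10035 at a log2 ratio of 0.58 (SE 0.22). Fabp5, which carries fatty acids, read 31015, 27560.3, 22639.7 and 20233.7 at -0.45 (SE 0.21). Mip (aquaporin 0) was at 0.23 (SE 0.20) and Bfsp1 (filensin) at 0.23 (SE 0.20), and for both the strains overlapped. Gja3 itself read 1101, 3383, 1969 and 3276, a wide spread within each strain, at 0.40 (SE 0.41), and at -0.41 without 129SvJae WT replicate 1. Of 19 lens transcription factors none had an unadjusted p under 0.05 and none was called by limma, and the median was 0.08. Pax6, which directs eye development, was at -0.23 (SE 0.23).

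The extracellular matrix held 1 of the called genes. Col6a3 encodes a chain of collagen VI, a microfibril collagen found next to basement membranes. Its signals were 372, 457.5, 2166 and 2829.7. Both C57BL/6J arrays stood well above both 129SvJae arrays, and the log2 ratio was 2.59 (SE 0.24, adjusted p = 2.39e-04). The partner chains did not pass the test. Col6a1 read 175, 211, 446 and 145 (log2 ratio 0.40, SE 0.51) and Col6a2 read 109.8, 148, 193 and 106 (0.17, SE 0.68), each overlapping between the strains. The main chains of the lens capsule did not pass the test, with Col4a1 at -0.02 (SE 0.27) and Col4a2 at 0.33 (SE 0.19).

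Of 49 tested genes of collagens and lens capsule, 7 were higher and 2 lower at an unadjusted p under 0.05, and the median was 0.09. This is a share of 18.4%, against 6.88% over all genes. Besides Col6a3 the higher ones were Nid1, Col11a1, Hspg2, Timp2, Sdc4 and Sparc. Nid1 encodes nidogen, which links laminin to collagen IV in basement membranes. It read 292, 279.5, 487 and 771 at a log2 ratio of 1.10 (SE 0.33, adjusted p = 0.496), with no overlap. Hspg2, the basement membrane proteoglycan perlecan, read 67.6, 596, 629 and 1044 at 2.01 (SE 0.73). For Hspg2 most of the ratio came from 129SvJae WT replicate 1, which stood far below the other arrays. Serpinh1, the collagen chaperone of the endoplasmic reticulum, showed the same layout, at 175, 1038, 1262 and 1589.7 (1.73, SE 0.55). Without 129SvJae WT replicate 1 the list gave 4 higher and none lower, and without C57BL/6J WT replicate 2 it gave 3 of each. Timp3 and Lamc1 were the 2 lower members, Timp3 at 1897, 1512, 920.3 and 1199.7 (-0.69, SE 0.26).

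Actin-binding proteins gave the lower gene with the tightest replicates. Tpm4 encodes a tropomyosin, a protein that wraps around actin filaments and stabilizes them. It read 2554 and 2565 on the 129SvJae WT arrays and 584.5 and 585 on the C57BL/6J WT arrays, so the replicates all but coincided. The log2 ratio was -2.13 (SE 0.23, adjusted p = 9.73e-04). The other tropomyosins did not pass, with Tpm1 at -0.20 (SE 0.33), Tpm2 at 0.49 (SE 0.96) through its brightest probe set and Tpm3 at 0.15 (SE 0.29). Of 34 cytoskeleton genes, 2 were higher and 1 lower at an unadjusted p under 0.05, with a median of 0.06. Their share was 8.82%, against 6.88% over all genes. Epb41l4a, a band 4.1 protein that ties membrane to cytoskeleton, read 297.5, 271, 706 and 655 at 1.26 (SE 0.34), and a second probe set gave 1.33 (SE 0.30). Both were free of overlap. Actb (β-actin) read 766, 2170.4, 3076 and 2059 at 0.96 (SE 0.41), where 129SvJae WT replicate 1 was again the low array. A dimmer Actb probe set met the criteria without overlap, at 611.9, 1377.0, 2319.8 and 2108.3 (1.27, SE 0.34).

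**Figure D2:**
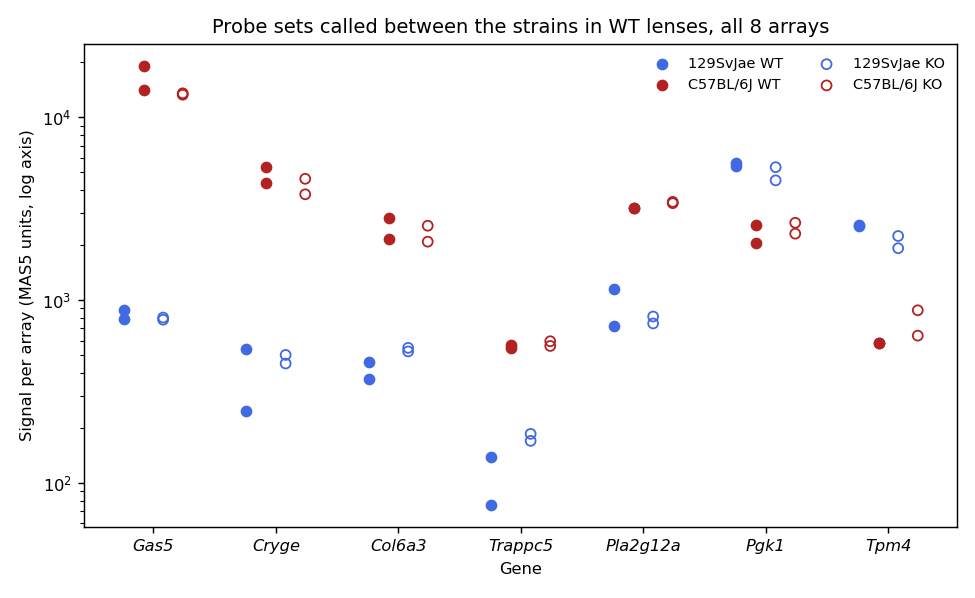
Signal per array (y axis, log scale, MAS5 units) of the 7 called probe sets in the WT arrays (filled) and KO arrays (open) of 129SvJae (blue) and C57BL/6J (red), 2 arrays per group. In every gene the 4 arrays of one strain lie apart from the 4 of the other.

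Vesicle trafficking held 6 genes higher and 1 lower at an unadjusted p under 0.05 among 73 tested, with a median of 0.06. This is a share of 9.59%, against 6.88% over all genes. Trappc5, part of the TRAPP complex, which holds incoming vesicles at the Golgi, was called. It read 75.8, 138, 545 and 569, so the C57BL/6J arrays were well apart from those of 129SvJae, and its log2 ratio was 2.44 (SE 0.37, adjusted p = 0.0298). Arl3, a small GTPase that releases lipidated cargo in cilia, read 937, 872.5, 1748 and 1945 at 1.03 (SE 0.22, adjusted p = 0.155). Tom1, an adaptor for ubiquitinated cargo on endosomes, read 1255, 1827, 2751 and 3826 at 1.10 (SE 0.25), with an adjusted p of 0.217, or 0.0334 with the replicate number as a block. Arf4, Copa and Arf5, of the coats that form transport vesicles, were at 0.78 (SE 0.30), 0.66 (SE 0.27) and 0.67 (SE 0.29). Ap3d1, of the adaptor that sorts proteins to lysosomes, was at -0.75 (SE 0.32). With arrays centred on the median, 3 genes of the list were higher and none lower, and without 129SvJae WT replicate 1 it was 3 and 1.

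Among phospholipases and lipid mediators only Pla2g12a was called. Pla2g12a encodes a secreted phospholipase A2, which frees fatty acids from membrane lipids. It read 1153, 719, 3192 and 3175, and the log2 ratio was 1.81 (SE 0.24, adjusted p = 0.00744). The C57BL/6J replicates lay close together, above both 129SvJae arrays. This held for 1 of its 2 probe sets. The dimmer one read 248, 135, 158 and 87.8, overlapped between the strains and had a log2 ratio of -0.64 (SE 0.55). Of 27 genes of lipid mediators and acyl-CoA metabolism, 3 were higher and 2 lower at an unadjusted p under 0.05. Their share was 18.5%, against 6.88% over all genes. Lta4h, which makes leukotriene B4, read 949, 1131, 396 and 557 at -1.14 (SE 0.33, adjusted p = 0.457). Alox15, a lipoxygenase, read 250.3, 189, 334 and 661 at 1.11 (SE 0.41, adjusted p = 0.669). Acadm and Acadl, dehydrogenases of fatty acid oxidation, were at 0.91 (SE 0.35) and 1.78 (SE 0.65). Cholesterol synthesis, a pathway active in fiber membranes, gave 1 higher and 1 lower gene of 23, a share of 8.7%.

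In glycolysis, the main source of ATP in the lens, the 2 genes with an unadjusted p under 0.05 were both lower in C57BL/6J, of 21 tested. Their share was 9.52%, against 6.88% over all genes. Blocking on the scan session gave 4 higher and 2 lower genes, and so did leaving out 129SvJae WT replicate 2. Pgk1, phosphoglycerate kinase, an ATP-forming step of the pathway, read 5393, 5602.5, 2043 and 2584. The strains were well apart, and the log2 ratio was -1.26 (SE 0.20, adjusted p = 0.0387). Pgam2, the mutase of the next step, read 9726, 11635, 6239 and 6553 at -0.73 (SE 0.18, adjusted p = 0.337). The other members ran from -0.45 to 0.98, and the median of the list was -0.06. Hk2, a hexokinase of the first step, went the other way without overlap, at 531.5, 527.5, 756 and 716 (log2 ratio 0.47, SE 0.26), and its ratio in KO lenses was 0.78.

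No gene of mitochondrial metabolism passed the adjusted threshold. Bckdhb, a subunit of the enzyme that commits branched-chain amino acids to breakdown, read 1624, 1159.9, 469 and 657 at -1.31 (SE 0.27, adjusted p = 0.148). Bcat2, the transaminase one step earlier, read 168, 251, 22.9 and 156 at -1.78 (SE 0.79), with 1 array near background. Of 35 genes of branched-chain amino acid breakdown and the citrate cycle, 2 were higher and 2 lower at an unadjusted p under 0.05. Their share was 11.4%, against 6.88% over all genes. Of 64 genes of oxidative phosphorylation, 2 (3.12%) were higher and none lower, and the median was -0.05. These were Atp5e, of ATP synthase, at 0.74 (SE 0.23) and Sdhd, of complex II, at 0.85 (SE 0.34).

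Among proteases, Ctsl, the lysosomal cathepsin L, was lower in signal in C57BL/6J. It read 4393, 5559, 2329.5 and 2367.5 and the strains were well apart. The log2 ratio of -1.07 (SE 0.20) missed the threshold at an adjusted p of 0.0860 and passed it at 0.0334 with the replicate number as a block. Of the aspartic cathepsins, Ctsd and the brightest probe set of Ctse ran the other way. Ctsd read 2028.5, 2628.5, 3136.5 and 3689 at 0.56 (SE 0.20), and that Ctse probe set read 134, 134, 378 and 458 at 1.64 (SE 0.50). A second Ctse probe set gave 0.59 (SE 0.40) without overlap. A dim one read 58.3, 41.0, 242.0 and 9.7, with overlap, at -0.01 (SE 1.52). The proteasome and ubiquitin list had 5 genes lower and 1 higher at an unadjusted p under 0.05 among 48. Their share was 12.5%, against 6.88% over all genes. A negative ratio was found for 33 of the 48, with a median of -0.15. Psmd4, the ubiquitin receptor of the proteasome, read 1643, 2339.9, 1084 and 1394 at -0.67 (SE 0.24). Psmc1, an ATPase of the same cap, was at -0.61 (SE 0.22), and Ube2b, Ube2g1 and Sae1, of ubiquitin and SUMO transfer, were between -0.75 and -0.70. This count depended on the arrays and the scaling. With arrays centred on the median it was none lower and 1 higher, without 129SvJae WT replicate 2 it was 2 lower and 4 higher, and without C57BL/6J WT replicate 1 it was 1 lower and 2 higher.

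Of 42 antioxidant genes, 3 (7.14%) had an unadjusted p under 0.05, a share near the 6.88% over all genes, and the median was 0.03. These 3 were higher in C57BL/6J. The count was 3 higher and 1 lower under a block for the replicate number and 6 and 1 under one for the scan session. Leaving out 129SvJae WT replicate 2 gave 5 and 1. Me1, which supplies NADPH, read 209, 231, 452 and 611 at 1.26 (SE 0.33, adjusted p = 0.368). Gclc, the rate-limiting subunit for glutathione synthesis, read 562, 719, 841 and 1120.3 at 0.61 (SE 0.25). Sod3, extracellular superoxide dismutase, read 59.7, 65.7, 214 and 169 at 1.60 (SE 0.54). None of these passed the adjusted threshold. All were free of overlap, as were 32.9% of all probe sets. Of 25 genes of iron, copper and heme, 1 was higher and 2 lower at an unadjusted p under 0.05, a share of 12.0%. Hebp1, a heme-binding protein, read 243, 271, 49.2 and 33.2 at -2.67 (SE 0.55, adjusted p = 0.143), with the C57BL/6J signals near background. Hfe, which regulates iron uptake, read 297, 89.1, 556 and 372 at 1.48 (SE 0.51), and Slc31a1, the copper importer, was at -0.56 (SE 0.24).

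Ppp1r15a, the phosphatase subunit that restarts translation after stress, read 346, 660.1, 1091 and 2493 at 1.79 (SE 0.41, adjusted p = 0.233). The 2 C57BL/6J arrays differed more from each other than the 129SvJae arrays did, yet did not overlap with them. Atf5, a transcription factor of the same response, read 266, 267, 373 and 705 at 0.94 (SE 0.35). Of 22 genes of the integrated stress response, 2 were higher and 1, Shmt2, lower at an unadjusted p under 0.05. Their share was 13.6%, against 6.88% over all genes. Of 44 heat shock proteins and chaperones, 2 were higher and 1, Hsph1 at -0.73 (SE 0.31), lower, a share of 6.82%. Tsc2, the brake on the growth kinase mTOR, read 817, 531, 1419 and 1165 at 0.97 (SE 0.26) through its brightest probe set and 528, 423, 1245 and 1227 at 1.39 (SE 0.25, adjusted p = 0.0860) through another. Both probe sets met the criteria, and another near background gave 0.31 (SE 0.77). Of 40 translation factors 2 (5.0%) were higher and none lower, and the median was 0.00.

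In growth control, Gas5 and Erdr1 led a list of 56 genes of cell cycle and growth arrest. At an unadjusted p under 0.05, 4 of them were higher and 3 lower, a share of 12.5% against 6.88% over all genes. Erdr1 read 1487, 707, 3009 and 2435 at 1.40 (SE 0.31, adjusted p = 0.206, and 0.0382 with the replicate number as a block), and a dimmer probe set gave 0.28 (SE 0.54). Gadd45a and Ccng1, both induced by p53, were lower in signal, at -0.63 (SE 0.22) and -0.62 (SE 0.21). Of 53 growth factor signaling genes, 4 were higher and 5 lower, a share of 17.0%, with a median of 0.08. F2r, the thrombin receptor, read 2151, 1411, 764 and 823 at -1.14 (SE 0.24, adjusted p = 0.179). Smad1, which carries BMP signals to the nucleus, read 1832, 2449.9, 1118 and 1429.5 at -0.74 (SE 0.24). Fgfr2, a receptor for the growth factors that drive fiber differentiation, read 2169, 1603, 955.5 and 1350.2 at -0.72 (SE 0.25). The 2 strains did not overlap on these probe sets, as was the case for 32.9% of all probe sets. The other 2 F2r probe sets were dimmer and overlapped, at -0.23 (SE 0.41) and -0.30 (SE 0.52).

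No gene on the lists of interferon-stimulated genes and ion transport was called. Rsad2 (viperin), an antiviral enzyme, read 39.3, 17.1, 241.5 and 153 at 2.89 (SE 0.63, adjusted p = 0.202), with 129SvJae near background, and was the 1 gene of 22 with an unadjusted p under 0.05. Of 32 ion pumps, solute carriers and aquaporins, 1 was higher and 2 lower at that p. The share was 9.38% here and 4.55% among the interferon-stimulated genes, against 6.88% over all genes. Car2, carbonic anhydrase II, read 441, 489, 252 and 229 at -0.95 (SE 0.32), with no overlap.

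**Figure D3:**
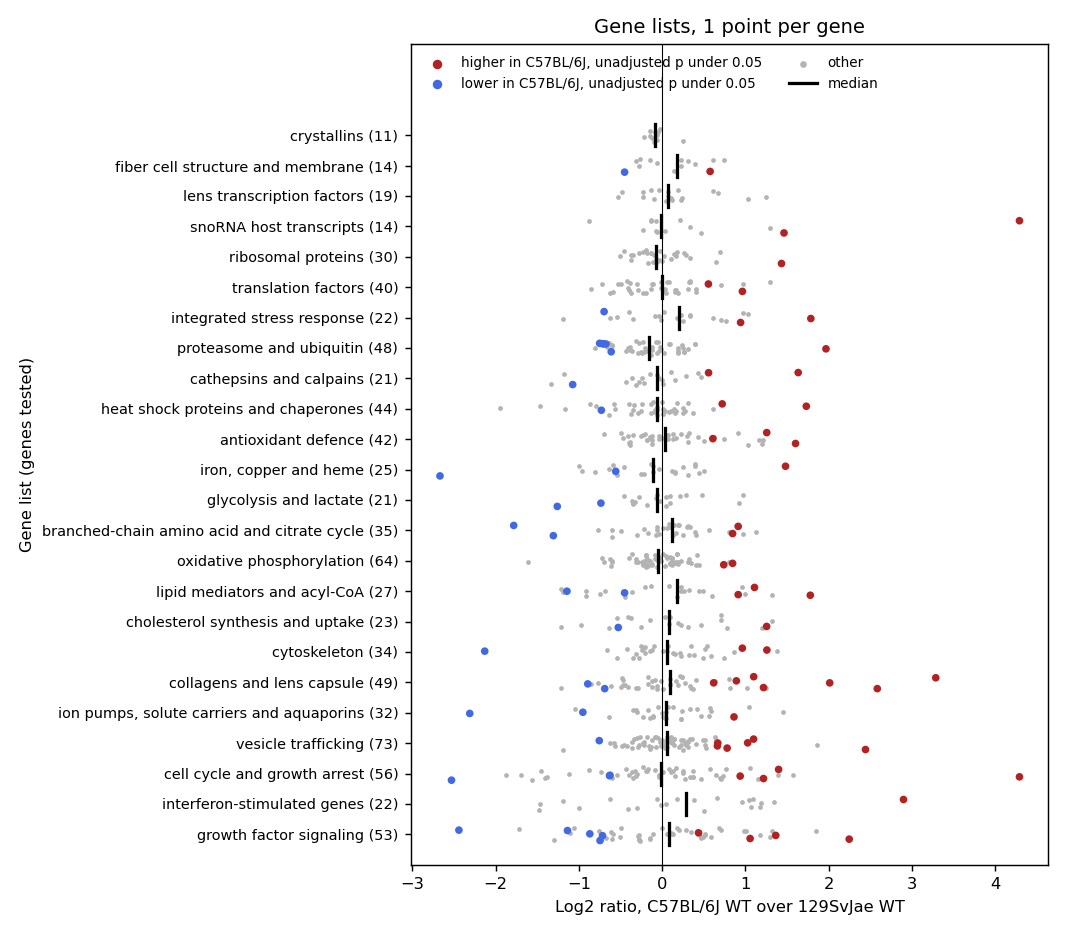
Log2 ratio of C57BL/6J WT over 129SvJae WT (x axis) for the genes of 24 lists (y axis, number tested in brackets), 1 point per gene through its brightest probe set, red or blue where the unadjusted limma p is under 0.05, with black bars at the medians. All medians lie between -0.15 and 0.28, and the crystallins form the narrowest list.

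Beyond the lists, the 15 largest rises and 15 largest falls among non-overlapping probe sets past the criteria were mostly dim. In 11 of the 15 rises and 7 of the 15 falls the dimmer strain had a mean of 50 or less, so the size of such ratios is imprecise. Examples are Twf2, an actin-capping protein, at 10.9, 10.0, 134 and 88.8, and S100a8, a calcium-binding protein of neutrophils, at 16, 10.8, 171.5 and 56.1. Prm1 was among the falls through the signal on 129SvJae WT replicate 1 given above. Of the 15 rises 7, and of the 15 falls 4, had the same direction with an unadjusted p under 0.05 on the KO arrays. Brighter genes next to the threshold were Spg21, a regulator of CD4 signaling, at 349.7, 273, 1052.5 and 1247 (log2 ratio 1.89, SE 0.31, adjusted p = 0.0503), Plk3, a stress-response kinase, at 4674, 5787, 10481.5 and 11451 (1.07, SE 0.20, adjusted p = 0.0896), and Mfge8, a secreted bridge for the uptake of dying cells, at 1578, 2245, 3717 and 4353 (1.10, SE 0.22, adjusted p = 0.133). With the replicate number as a block Spg21 (adjusted p = 0.03995) and Plk3 (adjusted p = 0.0461) passed, as did a probe set of Ankrd46 at 1.44 (adjusted p = 0.0461).

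Genes read by several probe sets show how far such a difference belongs to the gene. Of 124 genes with a probe set past the criteria, 41 had more than 1 tested. In 5 of them, Gas5, Epb41l4a, Tsc2, Gatad2a and Ankrd46, at least 2 probe sets met the criteria. Gatad2a, of a chromatin remodeling complex, had ratios of 1.15 (SE 0.31) and 1.62 (SE 0.43) through those 2 but 0.44 (SE 0.24) through a brighter one. In 21 of the 41 genes the brightest probe set met the criteria. In 9 of them the brightest ran in the opposite direction, among them Cryge, Tcta, Rbm39 and Slc25a5. Tcta read 36.9, 44.5, 250.3 and 216 through the dim probe set and 384, 378, 277 and 326 through the bright one. Of the 50 other probe sets of these genes, 31 had the same sign as the one past the criteria. Atp7a, the copper-transporting ATPase, was at 1.33 (SE 0.37) through one and 0.16 (SE 0.31) through the brighter one.

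**Figure D4:**
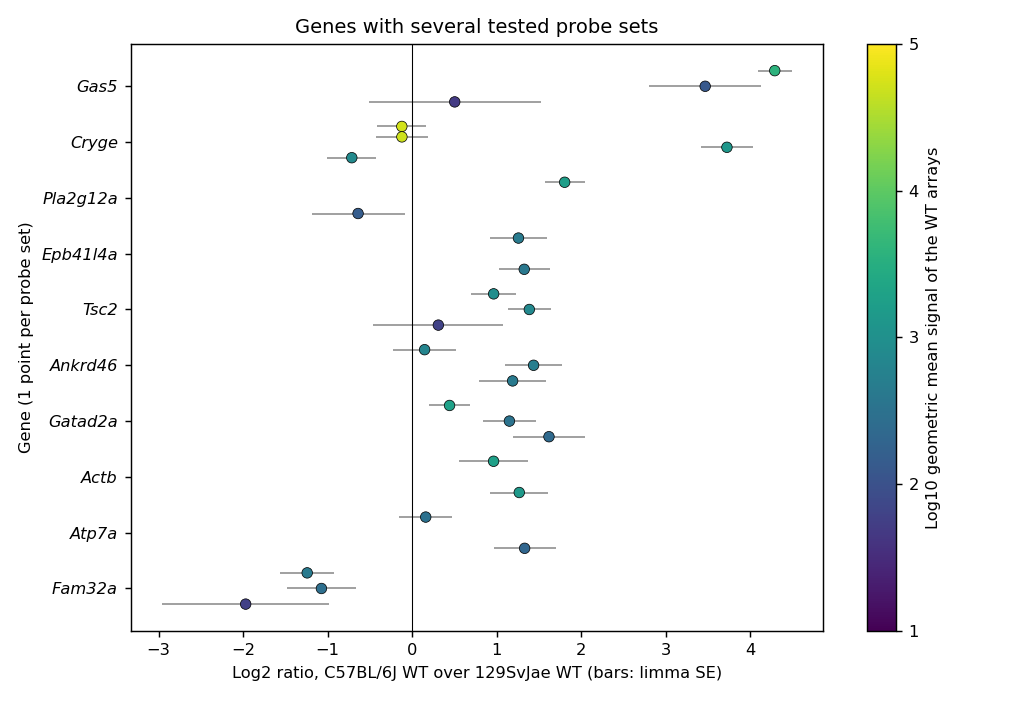
Log2 ratio of C57BL/6J WT over 129SvJae WT (x axis, bars are limma standard errors) for all tested probe sets of 10 genes (y axis), coloured by signal level. The probe sets of Epb41l4a, Tsc2 and Fam32a lie on one side of 0, while the 2 bright probe sets of Cryge lie at -0.12 and its called probe set at 3.73.

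The strain difference was then measured again on the 4 KO arrays, whose signals enter no WT ratio. The fit of all arrays gives both ratios of a probe set the same standard error, so probe sets chosen by a small WT p bring a small error into the KO test. The 7 called probe sets all had the same direction there with an unadjusted p under 0.05, and 5 of them passed the adjusted threshold. The KO log2 ratio was 4.08 for Gas5, 3.14 for Cryge, 2.11 for Col6a3 and 2.13 for Pla2g12a. It was -1.47 for Tpm4. Trappc5, at 1.70, and Pgk1, at -0.99, missed the adjusted threshold in KO lenses (adjusted p = 0.231 and 0.174). The second Gas5 probe set was at 2.95 and Snhg6 at 2.20 (SE 0.27).

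Of the 144 probe sets past the criteria in WT lenses, 119 (82.6%) had the same sign in KO lenses, against 55.7% of all tested. An unadjusted p under 0.05 with the same direction was found for 54 (37.5%), against 3.05% of all tested, and 1 passed that p in the opposite direction. With the KO arrays fitted alone, so that no WT array set the error, the count was 56 (38.9%), against 3.8% of all tested, with 2 in the opposite direction, and 5 of the 7 called probe sets again passed the adjusted threshold. In the fit of all arrays the share was 51.3% of the 78 probe sets with a mean signal above 300 and 21.2% of the 66 dimmer ones. The ratio was smaller in KO than in WT lenses for 128 of the 144, with a median size of 1.55 in WT lenses and 0.60, signed by the WT direction, in KO lenses. Selection on the WT ratio favours a smaller value in arrays that did not select. Genes with a like ratio in both sets include Hebp1 (-3.04 in KO lenses), Bckdhb (-1.58), Ctsl (-0.95), Tsc2 (0.92), Epb41l4a (1.44) and Tom1 (0.91). Genes whose KO ratio was near 0 include Plk3 (0.10), Sod3 (-0.06), Fgfr2 (-0.01), Ctsd (0.03) and Twf2 (0.09). The difference between the WT and KO ratios was not called for any probe set by limma (lowest adjusted p = 0.9999), so none of these genes is shown to differ between the genotypes.

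**Figure D5:**
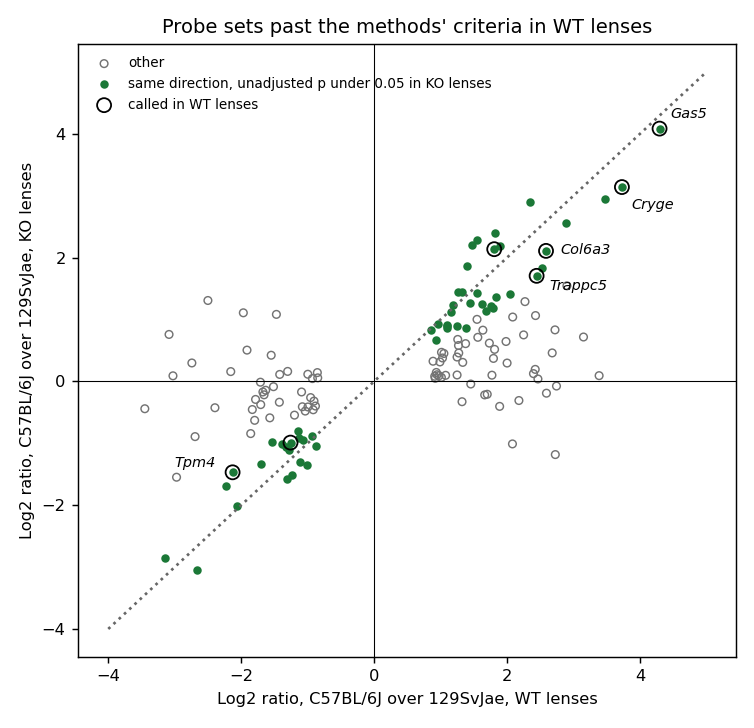
Log2 ratio of C57BL/6J over 129SvJae in KO lenses (y axis) against WT lenses (x axis) for the 144 probe sets past the criteria in WT lenses, green where the KO ratio has the same direction with an unadjusted p under 0.05, ringed where called in WT lenses, with a dotted line of equal ratios. Of the 144, 119 have the same sign on both axes, and most lie closer to 0 on the KO axis.

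Leaving out 1 array moved the counts in opposite ways. Without 129SvJae WT replicate 2, 31 probe sets were called, 27 of them higher in C57BL/6J, and 304 met the criteria, of which 81.3% were higher. Without C57BL/6J WT replicate 2, 16 were called, 11 of them lower, and 255 met the criteria, of which 25.9% were higher. Without C57BL/6J WT replicate 1, 4 were called. Leaving out 129SvJae WT replicate 1 gave 9 calls and 98 probe sets past the criteria. The split between higher and lower transcripts is therefore not fixed by these arrays, while Gas5, Cryge, Col6a3 and Tpm4 kept their calls in all 8 fits with 1 array removed. Trappc5 lost its call in 13 of 23 alternative settings and Pgk1 in 16, and without a variance trend limma called none of the 7.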

How the data were processed

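Lens RNA of 8 pools was labelled with biotin and hybridized by the authors to MG-U74Av2 chips. The deposited intensity values are MAS5 signals, which the authors scaled to a mean of 250 (the submitters' processing notes name the tool but no version). With 2% trimmed from either end, all arrays had a mean of 250.2. Median signals were 111, 95.1, 114 and 93.5 on the WT arrays, and the number of arrays limits the precision. The sample labels gave the groups and the replicate numbers.

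From these deposited intensity values log2 signals were computed without further scaling, with 1 signal at or under 0 set to 1. The 66 control probe sets of 12488 and 2870 with a mean of 50 or less in both WT groups were left out. In R 4.3.3 with limma 3.58.1, 1 fit of 4 group means to all 8 arrays with a trend in the variance prior (4 residual and 9.01 prior degrees of freedom) gave the strain contrast in WT and in KO lenses and their difference. P-values were adjusted by Benjamini-Hochberg over all probe sets tested. The fit was tested on simulated data. Symbols come from the platform annotation (314 tested probe sets had several and 758 none). A gene of a list is given by its brightest tested probe set.

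Every called probe set is named. Other names were drawn from the 15 largest rises and falls past the methods' criteria with non-overlapping arrays and from the 3 members of each list with the smallest p, not all of them printed, and further genes were named after their values were seen. The members, the 24 gene lists of 1069 genes, the 9 marker lists and the tests were chosen with earlier results of these data known.

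In all 6 pairs of groups same-numbered arrays deviated together from their group means (correlations of 0.133 to 0.205). Replicate 1 of all groups also shared a scan session and a chip lot. The fit as reported did not pair the arrays, and pairing by replicate number was run as an alternative. Alternatives were the methods' t-test, each array left out, array weights, WT arrays only, a block for the replicate number or the scan session, a robust prior, no variance trend, a level filter that was dropped, raised to 100 or passed by any of the 4 groups, a signal floor of 50, an added offset of 16, centring on the median and quantile normalization. Their effect on the gene lists and on the share seen again in KO lenses, and a fit of the KO arrays alone, were added after seeing the data.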

Additional observations from a re-analysis of the deposited data

How the results depend on the processing

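A set of 180 probe sets was called, met the criteria or was in the top 3 of a list with an unadjusted p under 0.05. None of them changed direction under any alternative. These were chosen by a small p. On the 144 past the criteria the strains did not overlap, so leaving out 1 array could not reverse them. Of 43 others named, 17 changed direction, and the cause was not tested. Leaving out 1 array gave -0.48 to 0.35 for Cryaa, -0.67 to 0.37 for Crygd, -0.55 to 0.11 for Cryz, -0.51 to 0.27 and -0.50 to 0.26 for the bright Cryge probe sets, -0.41 to 1.21 for Gja3, -0.47 to 0.44 for Col4a1, -0.41 to 1.21 for Col6a1, -0.27 to 0.60 for Col6a2, -0.66 to 1.64 for Tpm2, -0.086 to 0.39 for Tpm3, -0.088 to 2.68 for Eef1b2, -1.91 to 0.16 for Rcc1 and -0.0058 to 0.33 for the bright Atp7a probe set. For the dimmest probe sets it gave -0.062 to 1.07 (Gas5), -0.35 to 0.91 (Erdr1) and -0.21 to 0.83 (Tsc2). Quantile normalization turned Col4a1 to 0.029 and Cryaa to 0.018, a floor of 50 turned Tpm2 to -0.14, and the scan session as a block turned Cryaa to 0.023, Tpm2 to -0.61 and the dimmest Gas5 probe set to -0.21.

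The 7 calls (5 higher, 2 lower) became 5 with quantile normalization (1 lower), 4 with arrays centred on the median (3 higher, 1 lower) and 5 without a level filter (1 lower). They were 6 with the WT arrays only and 5 with array weights, with 1 lower in each. Without a variance trend limma called 0 (0 higher, 0 lower), with 586 probe sets at an unadjusted p under 0.05. By the methods' t-test 1 was called on log2 signals (0 higher, 1 lower, which was Tpm4) and 0 on linear signals (0 higher, 0 lower), with 456 and 455 at an unadjusted p under 0.05. At the methods' thresholds these t-tests gave 49 and 53 probe sets in place of 144.

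With the replicate number as a block, which pairs the arrays, 16 probe sets were called, 13 of them higher, and no call among named genes was lost. The genes it added are given beside their results, and it changed no other call of a gene named there. With the scan session as a block 36 were called, 31 higher and 5 lower, 371 met the criteria, and the share seen again in KO lenses was 22.6%. That fit gets no information from 129SvJae WT replicate 2, the one array of its session. Blocking on the session raised the share of higher probe sets past the criteria from 58.3% to 72.5%.

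Leaving out each of the 8 arrays gave 4 to 31 calls, 3 to 27 higher and 1 to 11 lower. The probe sets past the criteria ran from 98 to 304 and their share seen again in KO lenses from 18.4% to 52.0%. The largest moves came without 129SvJae WT replicate 2 (31 calls, share 18.4%) and without C57BL/6J WT replicate 2 (16 calls, share 19.2%). The group left with 1 array is assumed to vary like the others, and the cause was not tested.

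Gas5, Cryge and Col6a3 kept their call in 20 of 23 alternatives, Tpm4 in 21, Pla2g12a in 18, Trappc5 in 10 and Pgk1 in 7. Pla2g12a lost it with arrays centred on the median, without a variance trend, by both t-tests and without C57BL/6J WT replicate 1. With the probe sets restricted to a mean above 100 the count of calls stayed at 7, and in the fit as reported none of the probe sets with a geometric mean signal under 100 was called by limma.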
